A study of Homo sapiens with 4 samples.

Results

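NALM6, a human precursor B-cell acute lymphoblastic leukaemia (ALL) line, was set against the other 3 lines profiled with it, and its array was 1 of 4. It was chosen by its label alone. NALM6 and REH are described by the submitters as lacking the translocation t(4;11), while RS4;11 and SEM carry it, with a rearranged MLL gene. All 4 lines were untreated precursor B-cell ALL cultures grown below confluence in RPMI medium with fetal bovine serum, and total RNA of each was hybridised to 1 Affymetrix whole-transcript array. A cell line is the outgrowth of 1 patient's leukaemia, so that each array stands for 1 line and NALM6 has no replicate. Nothing in the labels says that a line was grown or hybridised more than once.

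Precursor B-cell ALL arises from progenitors that are rearranging their immunoglobulin genes, and each genetic subtype has its own expression pattern. NALM6 is known to carry a rearrangement that places DUX4 under control of the immunoglobulin heavy chain locus. DUX4 is a double homeobox transcription factor that is normally active in the early embryo, and leukaemias with this rearrangement express the myeloid surface lectin CLEC12A, the phosphatase PTPRM and a characteristic set of other genes.

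Levels are log2 values processed by the submitters, with 1 probe set per gene, and 18354 genes were compared. The median over all gene values was 6.76, and the 25th percentile of an array lay between 4.97 and 5.02, so that a fold against a level near 5 is a compressed measure. A gene was called higher in NALM6 if NALM6 lay at least 4-fold (2 log2 units) above the highest of the other 3 lines, and lower if it lay at least 4-fold below the lowest. This distance to the nearest other line is called the gap. An exact permutation test of 1 line against 3 cannot go below a one-sided p of 0.25, so that the gap is given without a test. Beside it, limma compared NALM6 with the mean of the other 3 lines against the spread among those lines, with the assumption that NALM6 varies as they do.

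The label of precursor B-cell ALL was checked first. The B-lineage factor PAX5 was at 11.85 in NALM6, the receptor chain CD79A at 11.44, the B-cell lectin CD22 at 11.54 and MME, the surface peptidase CD10, at 12.48. The mature B-cell antigen MS4A1 (CD20) was at 4.53 and the stem cell antigen CD34 at 4.73, both near the 25th percentile. NALM6 therefore showed the markers of a precursor B cell as labelled. The other lines had similar levels of PAX5 (11.61 to 11.90), CD79A (11.05 to 12.35) and CD22 (11.10 to 11.65). MME was at 12.56 in REH, against 5.54 in RS4;11 and 5.34 in SEM. These markers describe the cell type and do not tell NALM6 from REH. Of 24 measured B-lineage surface antigens, 18 lay above 6.76 in NALM6, and the mean level of this list was 9.16 in NALM6, against 8.47 in RS4;11, 7.59 in SEM and 8.99 in REH. Lists of other lineages had these mean levels: over 20 T and NK cell genes 5.54 in NALM6 and 5.31 to 5.60 in the other lines, over 21 myeloid genes 5.74 against 5.42 to 6.21, over 15 erythroid and megakaryocyte genes 5.20 against 5.18 to 5.30, and over 19 stromal and epithelial genes 5.48 against 5.55 to 5.67. Above 6.76 in NALM6 were 4 of the 20 T and NK cell genes (CD7, CD4, LCK and GATA3), 4 of the 21 myeloid genes (CD68, CEBPB, LYZ and CLEC12A), 0 of the 15 erythroid and megakaryocyte genes and 1 of the 19 stromal and epithelial genes (KRT18). Of these, CD4, LYZ and CLEC12A lay at least 2-fold above all other lines. Other markers of the same lineages, CD3D at 4.90, CD14 at 4.81, MPO at 4.75 and EPCAM at 5.08, were near the 25th percentile. The part of other cells in any result was not tested.

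NALM6 lay at least 4-fold above all other lines in 68 genes (0.37% of those compared) and at least 4-fold below them in 84 (0.458%). At 2-fold the numbers were 209 (1.14%) and 214 (1.17%). The median gap was 2.84 (7.18-fold) among the higher genes and 2.80 (6.96-fold) among the lower ones. In 51 of the 68 higher genes all 3 other lines lay below 6.76. In all 84 lower genes the other 3 lines lay above 6.76, and in 77 of them NALM6 lay below it. The position of the other lines was nearly fixed by the rule. NALM6 was at 4.26 or more in these genes, and the other lines had to lie at least 2 log2 units higher. The numbers of higher and lower genes depended most on REH. Without this line 141 genes were higher and 168 lower, against 92 and 116 without RS4;11 and 90 and 111 without SEM. FSD1 and NLRP11 were the nearest genes inside the limit on the higher side, with gaps of 2.05 and 2.06, and RUBCNL (11.10 in NALM6, 9.10 in REH) and ABCG2 (gap 1.99) the nearest outside. On the lower side COCH and BTBD8 lay just inside, both with 2.01, and TIGD2 and HOXA2 just outside, both with 1.97.

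The same count in each of the other lines put NALM6 between them in number. RS4;11 had 30 genes above and 45 below all others, SEM 127 and 38, and REH 139 and 88. NALM6 and RS4;11 had more genes below than above the other lines, SEM and REH more above. Taken in pairs, NALM6 differed at least 4-fold from RS4;11 in 522 genes, from REH in 596 and from SEM in 646. The correlation across the 18354 genes was 0.949 with RS4;11, 0.946 with REH and 0.940 with SEM. The other line labelled as lacking t(4;11) was thus not the nearest by either measure. Genes are not independent replicates, and all arrays share 1 normalization.

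**Figure D1:**
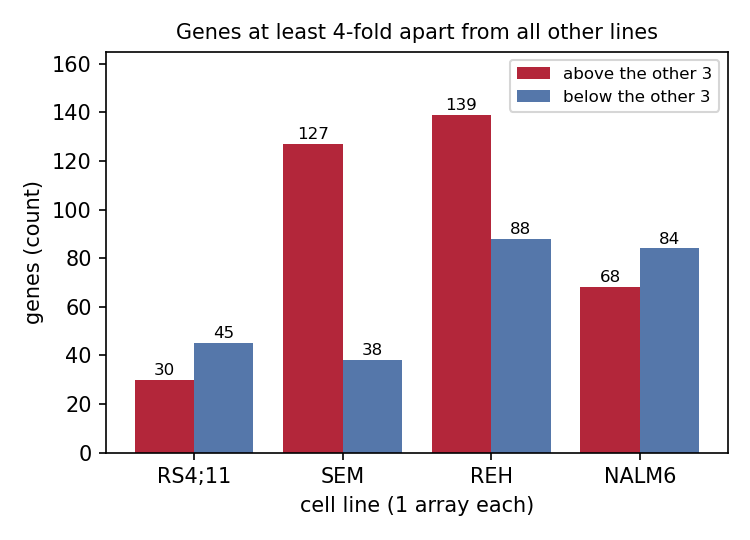
Number of genes (vertical axis) in which each cell line (horizontal axis, 1 array each) lay at least 4-fold above (red) or below (blue) all 3 other lines. NALM6 had 68 genes above and 84 below; the lowest bar is the 30 genes above in RS4;11 and the highest the 139 above in REH.

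Limma called 10 genes higher in NALM6 (0.0545%) and 1 lower (0.00545%), each at an adjusted p of 0.0485. Before adjustment, 546 higher and 427 lower genes had p under 0.05. The genes called higher were PDGFRA, ANKRD30B, PTGDR, CLEC12A, LRRC7, PTGER2, CACNA2D3, TTN, MRAP2 and CLEC12B, and the gene called lower was ARHGAP32. The other 3 lines lay close together in each. These calls sat at the edge of the threshold: no gene passed with arrays centred on their medians, with dim genes left out, with an intensity trend, with robust moderation or without any 1 of the other lines, and the smallest adjusted p over these settings ran from 0.0506 to 0.533.

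The genes known from DUX4-rearranged ALL gave the largest group of list members set apart in NALM6. Of 14 genes, all measured, 8 lay at least 4-fold above the other lines, against 0.37% of all genes, and none lay below them. The median of NALM6 minus the mean of the others was 3.19 on the log2 scale, against 0.00 over all genes. The list was put together with earlier results of these data known, so its count is a description.

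DUX4 itself was at 9.41 in NALM6, 5.95 in RS4;11, 5.97 in SEM and 6.67 in REH, a gap of 2.74 (6.67-fold). NALM6 alone was high. The array holds 12 probe sets for DUX4, and with gaps of 1.31 to 2.74 NALM6 was the highest line in each. DUX4 lies in a repeat of near-identical copies, several probe sets gave the same values, and only 7 distinct sets of values remained at 2 decimals. They cannot tell a rearranged copy from the others.

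STAP1, an adaptor protein downstream of B-cell receptor kinases, was at 12.22 in NALM6 against 6.76 in RS4;11, 5.94 in SEM and 5.05 in REH. Its gap was 5.45, or 43.8-fold, and the other lines themselves had an SD of 0.86, and limma did not call it (adjusted p = 0.333). CLEC12A, an inhibitory lectin of myeloid cells, was at 9.40 in NALM6 and at 4.47, 4.36 and 4.32 in RS4;11, SEM and REH (gap 4.93, 30.5-fold). CLEC12B, of the same gene family and also on chromosome 12, was at 8.57 against 4.58, 4.44 and 4.51 (gap 3.98, 15.8-fold). Both lectin genes were near the 25th percentile in all 3 other lines, and limma called both. PTPRM, a receptor-type tyrosine phosphatase with adhesive extracellular domains, was at 10.19 in NALM6, 4.80 in RS4;11, 4.60 in SEM and 6.56 in REH (gap 3.63, 12.4-fold). REH was the next highest line, and the gap was measured to it.

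The other members past 4-fold were AGAP1, CHST2 and LHFPL2. AGAP1, a GTPase-activating protein for Arf proteins, was at 10.41 in NALM6 and 5.76, 6.96 and 7.20 in RS4;11, SEM and REH. CHST2, a carbohydrate sulfotransferase, was at 9.66 against 6.42, 6.82 and 6.24. LHFPL2, a tetraspan membrane protein, was at 10.00 against 5.56, 5.79 and 7.34. Not every gene of the list stood apart. GNG11, a G-protein gamma subunit, was at 8.57 in NALM6 but 7.68 in SEM and 7.64 in REH. CCNJ, a cyclin, was at 9.99 against 9.70 to 9.85 in the other lines, and CHST7 at 6.19 against 5.42 to 5.92. CD2, a T-cell adhesion molecule, and PCDH17, a protocadherin, were near the 25th percentile in all 4 lines. ERG, an ETS transcription factor, was at 10.73 in NALM6, 11.16 in RS4;11, 10.63 in SEM and 11.99 in REH.

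**Figure D2:**
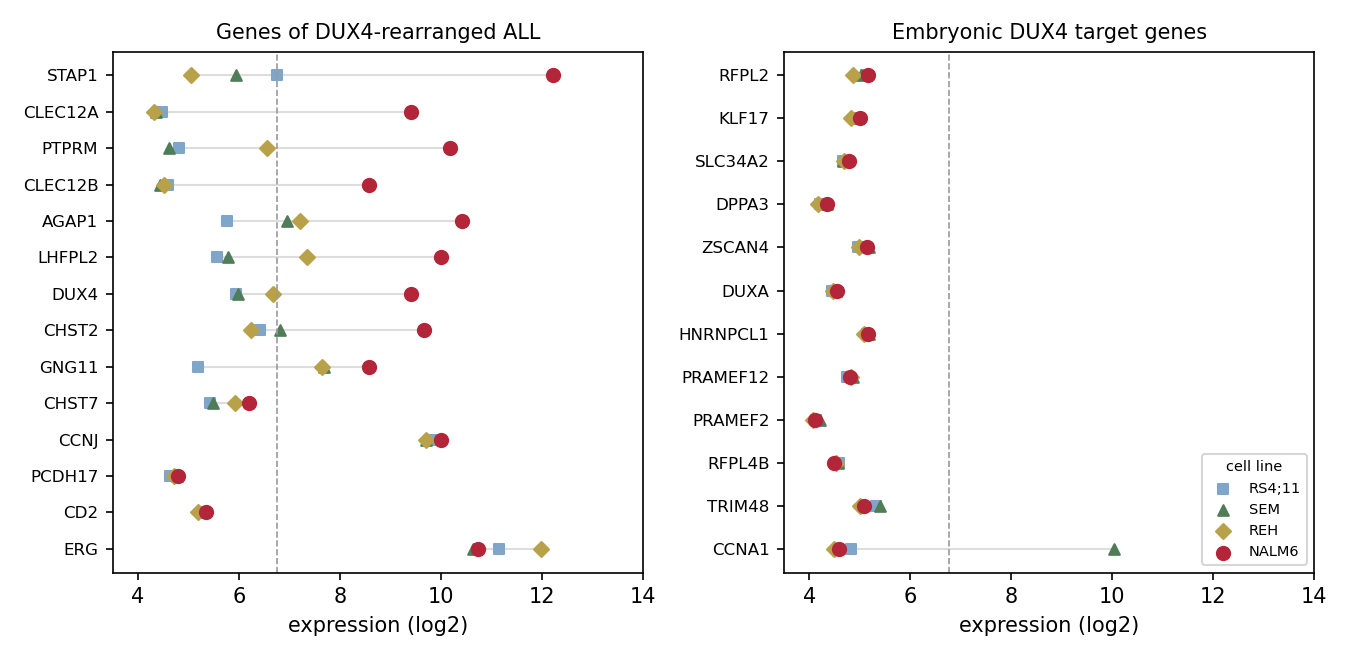
Expression (log2, horizontal axis) in the 4 cell lines of the 14 genes known from DUX4-rearranged ALL (left) and of the 12 measured embryonic target genes of DUX4 (right), with 1 array per point, and a dashed line at the median of all gene values, 6.76. NALM6 lies far to the right for the upper 8 genes on the left and among the other lines on the right, where CCNA1 in SEM is the 1 high value.

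Those genes that DUX4 switches on in embryonic and muscle cells and that were measured did not share this pattern. Of 19 such genes 12 were measured, and LEUTX, PRAMEF1, TRIM43, TRIM49, KHDC1L, MBD3L2 and KDM4E were not. Of the 12, 0 lay 2-fold or more above or below the other lines, against 1.14% and 1.17% of all genes, so that this count is near the background. All 12 were below 6.76 in NALM6, and the median of NALM6 minus the mean of the others was 0.05. ZSCAN4, a zinc finger gene of the cleavage-stage embryo, was at 5.14 in NALM6 and 4.97 to 5.19 in the other lines. DUXA, a related homeobox gene, was at 4.54 against 4.44 to 4.53. CCNA1, a germline cyclin, was at 4.59 in NALM6 but 10.03 in SEM.

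Beyond that list, the largest gap of all belonged to PDGFRA, the receptor tyrosine kinase for platelet-derived growth factor. It was at 10.76 in NALM6 and at 4.75, 4.64 and 4.60 in RS4;11, SEM and REH, 64.1-fold above the nearest line and 6.09 log2 units above their mean (limma adjusted p = 0.0485, SE 0.13). The next kinase was FLT1, a receptor for vascular endothelial growth factor, at 10.32 against 4.58 in RS4;11, 4.55 in SEM and 7.02 in REH (9.86-fold). DDR1, a collagen receptor kinase, was at 8.68 against 5.89, 6.13 and 6.97 (3.25-fold). These 3 kinases were highest in NALM6. In contrast, FLT3, the receptor of early lymphoid and myeloid progenitors, was at 8.46 in NALM6, 11.34 in RS4;11, 12.82 in SEM and 10.35 in REH (3.70-fold below the nearest line). PDGFRB was at 6.68 in NALM6 against 8.39, 9.29 and 8.13 (2.73-fold below). So the platelet-derived growth factor receptors differed in opposite directions, PDGFRA past the 4-fold limit and PDGFRB past 2-fold only. Of 33 receptor tyrosine kinases measured, 3 lay at least 2-fold above and 2 at least 2-fold below the other lines, against 1.14% of all genes above and 1.17% below, and 24 were below 6.76 in NALM6.

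Receptors of prostaglandins came as a pair. PTGDR, a receptor of prostaglandin D, was at 10.15 in NALM6 and 5.10, 4.93 and 5.08 in RS4;11, SEM and REH (gap 5.05, 33.2-fold). PTGER2, a receptor of prostaglandin E that also couples to cyclic AMP, was at 9.14 against 4.79, 4.89 and 4.75 (gap 4.25, 19.0-fold). They are neighbours on chromosome 14, and no other pair of adjacent measured genes was at least 4-fold higher in NALM6. The genes on either side did not share the pattern: NID2, a basement membrane protein, was at 5.22 in NALM6 and high in REH alone (9.76), and TXNDC16 was at 8.52 in NALM6 against 8.07 to 8.87.

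Further genes among the 20 largest gaps included some better known from nerve or muscle, a description made after their values were seen. Genes of neurons were found on the lower side too, such as SYT1 (synaptotagmin, gap 3.51) and CRMP1 (gap 3.49). ANKRD30B, an ankyrin repeat gene, was at 10.93 against 5.79, 5.64 and 5.53 in RS4;11, SEM and REH (35.2-fold). MAP1B, a microtubule-associated protein of neurons, was at 9.90 against 4.73, 4.78 and 5.16 (26.7-fold). LRRC7, a scaffold protein of synapses, was at 9.32 against 4.78, 4.77 and 4.79 (gap 4.52). In these genes the 3 other lines lay close together and NALM6 far from all of them. CACNA2D3 and CACNB2, auxiliary subunits of voltage-gated calcium channels, had gaps of 4.24 and 3.26. TTN, the muscle protein titin, had a gap of 4.14. NSG1, an endosomal protein of neurons, had one of 3.28. VNN1, a pantetheinase, MRAP2, an accessory protein of melanocortin receptors, and CDC42BPB, a kinase effector of CDC42, had gaps of 4.35, 4.06 and 3.97.

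Among genes of lymphocytes, IKZF3 (Aiolos), the Ikaros family factor that rises as B-cell precursors mature, was at 10.02 in NALM6 and at 6.06, 5.55 and 5.21 in RS4;11, SEM and REH (gap 3.96, 15.6-fold). CD84, a SLAM family receptor, was at 11.10 against 7.62, 5.50 and 6.87 (11.1-fold). SLAMF6, a receptor of the same family, was at 6.78 against 5.75, 4.74 and 4.90 (2.04-fold). MPPED2, a metallophosphoesterase, was at 11.72 in NALM6 and 8.33 in SEM, but 4.81 and 4.66 in RS4;11 and REH (10.5-fold above SEM). Smaller gaps set apart JCHAIN, the joining chain of secreted immunoglobulin, at 6.93 against 4.45 to 4.75, and PRDM1, the plasma cell factor Blimp-1, at 7.09 against 4.79 to 5.77. FCRLA, a B-cell Fc receptor-like protein, was at 9.84 against 7.41 to 8.69. They were 3 of 18 measured genes of mature B and plasma cells that lay at least 2-fold above the other lines, against 1.14% of all genes. Of the 18, 5 were above 6.76 in NALM6, and MS4A1, CR2, CD27, TNFRSF17, FCRL2, FCRL5 and CXCR5 were near or below the 25th percentile. CD4 was at 7.18 against 4.56 to 5.04, while CD3D, CD3E and CD3G were near the 25th percentile, and lysozyme (LYZ) was at 9.65 against 8.27, 8.50 and 5.80.

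A few components of the Wnt and bone morphogenetic protein (BMP) pathways were among the 68 genes. They were grouped after their values were seen, without a count of all genes of these pathways. LGR5, a receptor that strengthens Wnt signals, was at 12.77 in NALM6, 8.13 in RS4;11, 7.64 in SEM and 9.76 in REH (8.06-fold). The Wnt antagonist APCDD1 was at 9.11 against 6.13, 6.11 and 5.63 (7.89-fold), and the Wnt receptor FZD6 at 9.17 against 7.09, 5.63 and 5.11 (4.23-fold). SMAD1, which carries BMP signals to the nucleus, was at 11.70 against 9.12, 9.54 and 9.43 (4.46-fold). CHRDL1, a BMP antagonist, was at 7.63 against 4.49, 4.50 and 4.54 (8.53-fold). SMAD1 was above 9 in all 4 lines, whereas CHRDL1 was near the 25th percentile in the other 3. Secreted and adhesion proteins in the same set included SPP1 (osteopontin), at 9.32 against 5.28 to 6.24, and MCAM, an endothelial adhesion molecule, at 9.18 against 5.23 to 6.42.

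**Figure D3:**
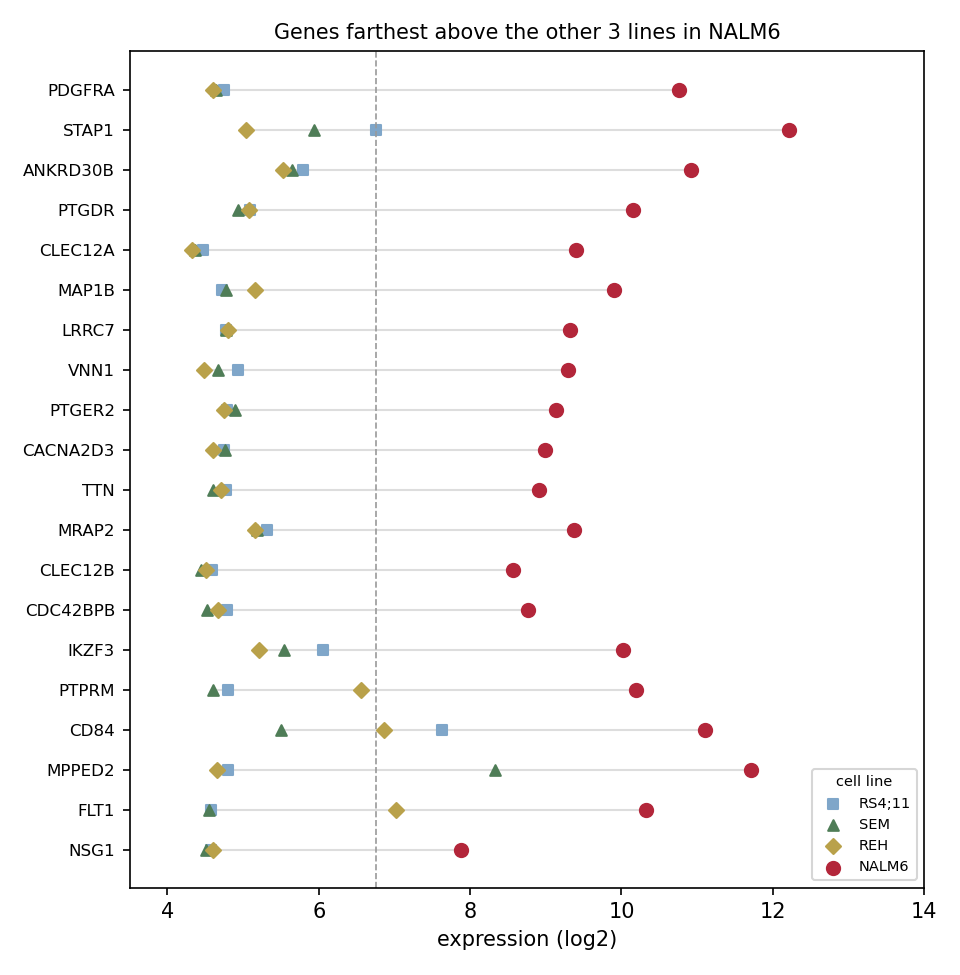
Expression (log2, horizontal axis) in each cell line of the 20 genes with the largest gaps of NALM6 above the other 3 lines, ordered by gap, with 1 array per point; the dashed line marks the median of all gene values, 6.76. NALM6 (red) lies between 7.88 and 12.22, and the other lines at or below 6.76, with the exceptions of CD84, MPPED2 and FLT1, where 1 or 2 other lines lay above it.

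In the 84 lower genes the other 3 lines all lay above the median of all gene values, as the rule nearly required, and NALM6 lay below it in most. The largest gap was that of SLC35A4, a member of the nucleotide sugar transporter family. It was at 5.42 in NALM6 and at 11.11, 11.32 and 10.98 in RS4;11, SEM and REH, 47.3-fold below the nearest line (gap 5.56). APBB3, the adjacent gene on chromosome 5 and an adaptor that binds the amyloid precursor protein, was at 5.47 against 9.26, 8.80 and 9.51 (10.1-fold). The next measured genes on either side, SRA1 and TMCO6, were at 7.24 and 8.99 in NALM6, against 7.12 to 7.66 and 8.56 to 8.92 in the other lines. The low values of NALM6 were thus limited to this pair among the 9 neighbouring measured genes examined.

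Other large gaps, grouped here after their values were seen, belonged to genes of metabolism and membranes. SYPL1, a synaptophysin-like vesicle protein, was at 5.46 against 10.76, 10.55 and 11.05 in RS4;11, SEM and REH (34.1-fold). SUCLG2, a subunit of the succinyl-CoA ligase of the citric acid cycle, was at 4.26 against 9.45, 9.69 and 9.27 (32.2-fold). PLD1, a phospholipase that makes phosphatidic acid, was at 4.85 against 10.18, 9.55 and 9.46 (24.4-fold). In each of these NALM6 was in the dim range and the other lines were all bright and close together. MBOAT1, a lysophospholipid acyltransferase, was at 4.66 against 8.51 to 9.66. POGLUT3, a protein glucosyltransferase of the endoplasmic reticulum, was at 5.31 against 9.53 to 9.99, and CMTM3, a MARVEL domain membrane protein, at 5.47 against 9.68 to 10.53.

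Some of the lower genes encode regulators of small GTPases. They were grouped after their values were seen, without a count of all such regulators, and AGAP1, of the same class, was among the higher genes. DOCK8, which activates CDC42 in leukocytes, was at 5.58 in NALM6 and at 11.29, 11.05 and 10.63 in RS4;11, SEM and REH (33.2-fold). ARHGAP32, a GTPase-activating protein, was at 5.18 against 10.08, 10.03 and 10.14 (28.7-fold; limma SE 0.11, adjusted p = 0.0485). DENND3 and DENND1B, exchange factors for Rab proteins, were at 5.29 against 9.89 to 10.70 and at 4.71 against 8.62 to 8.84. All of these were high in every other line. ARHGEF12 and VAV2, guanine nucleotide exchange factors, had gaps of 3.43 and 3.47. ASAP2, an Arf GTPase-activating protein, had one of 3.26. RASGRP1, which activates Ras in lymphocytes, was at 7.83 against 10.16 to 10.82 (5.05-fold).

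The remaining genes among the 15 largest gaps, with a few others, have various roles. PTK2, the focal adhesion kinase, was at 5.34 in NALM6, 9.56 in RS4;11, 10.63 in SEM and 10.73 in REH (18.7-fold). It adjoins DENND3 on chromosome 8, and these were among 3 pairs of adjacent measured genes at least 4-fold lower in NALM6, the others being APBB3 with SLC35A4 and ARHGAP32 with LOC399975. CAMK2D, a calcium and calmodulin dependent kinase, was at 6.61 against 12.22, 11.17 and 10.12 (11.4-fold). GAS2L3, which links actin and microtubules, was at 5.22 against 9.25 to 10.44. The adhesion molecules ALCAM and JAM2 were at 5.61 against 9.34 to 9.90 and at 5.49 against 8.51 to 9.94. IGFBP7, a secreted protein that binds insulin-like growth factors, was at 5.69 against 11.34, 11.05 and 9.98 (19.5-fold). SEMA3A, a secreted guidance protein, was at 4.37 in NALM6, 8.26 in RS4;11, 8.27 in REH and 11.15 in SEM (14.8-fold).

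**Figure D4:**
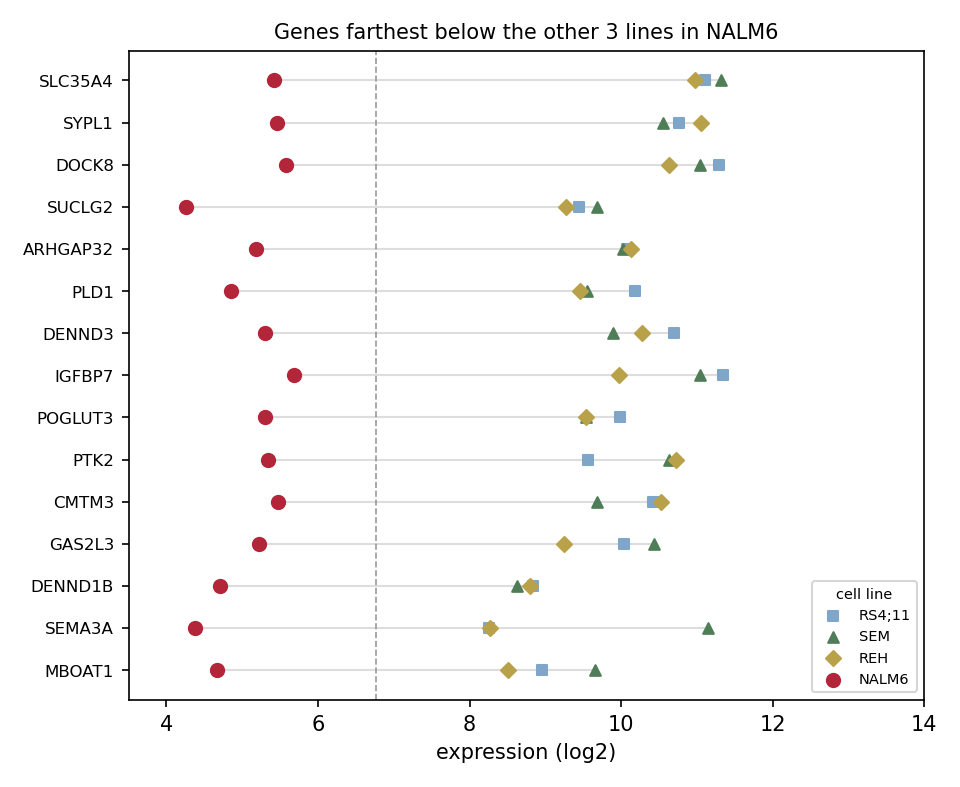
Expression (log2, horizontal axis) in each cell line of the 15 genes with the largest gaps of NALM6 below the other 3 lines, ordered by gap, with 1 array per point; the dashed line marks the median of all gene values, 6.76. NALM6 (red) lies between 4.26 and 5.69 and the other lines between 8.26 and 11.34.

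Some lower genes belonged to the lists of B-lineage transcription factors and of stem and progenitor genes. IRF8, an interferon regulatory factor of B and myeloid cells, was at 5.75 in NALM6, 8.47 in RS4;11, 10.09 in SEM and 8.67 in REH (6.61-fold lower). BCL6, the repressor that supports pre-B and germinal centre cells, was at 7.32 against 10.99, 9.24 and 10.76 (3.76-fold). MEF2C was at 11.65 against 12.83, 12.96 and 12.73 (2.12-fold). Of 30 B-lineage transcription factors measured, 3 lay at least 2-fold below the other lines (IRF8, BCL6 and MEF2C) and 2 at least 2-fold above (IKZF3 and PRDM1), against 1.17% and 1.14% of all genes. NOTCH1, the receptor of T-cell fate, was at 5.90 against 8.68, 8.77 and 8.68 (6.86-fold; limma adjusted p = 0.0579). NOTCH1 belonged to neither list. PROM1 (CD133) was at 5.34 in NALM6 and 8.12 in REH, but 12.30 and 12.63 in RS4;11 and SEM. It was 1 of 2 among 17 stem and progenitor genes that lay at least 2-fold below the other lines, with FLT3, and 0 lay above. Over all genes 1.17% lay below and 1.14% above.

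The reference promoters of genes on both sides were examined, a step added after the values were seen. They are the 250 bases before the RefSeq start in assembly GRCh38.p14, and they are shown for a pair of genes high in NALM6 alone and a pair low in NALM6 alone because these differ in CG dinucleotides, the sites of DNA methylation in mammals. CG is in capitals. STAP1 lies on the plus strand of chromosome 4 at chr4:67558477-67558726 and CLEC12A on the plus strand at chr12:9971159-9971408. SLC35A4 lies on the plus strand at chr5:140564578-140564827 and SUCLG2 on the minus strand at chr3:67654613-67654862.
STAP1: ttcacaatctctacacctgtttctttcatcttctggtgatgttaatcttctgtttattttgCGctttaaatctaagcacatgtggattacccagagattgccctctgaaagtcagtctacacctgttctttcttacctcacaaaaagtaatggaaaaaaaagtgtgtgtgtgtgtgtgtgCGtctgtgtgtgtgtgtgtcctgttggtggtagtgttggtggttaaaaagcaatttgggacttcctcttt
CLEC12A: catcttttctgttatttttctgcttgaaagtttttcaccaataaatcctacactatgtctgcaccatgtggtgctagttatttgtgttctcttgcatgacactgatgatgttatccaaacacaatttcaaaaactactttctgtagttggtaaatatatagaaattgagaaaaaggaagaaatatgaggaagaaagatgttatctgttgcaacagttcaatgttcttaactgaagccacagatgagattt
SLC35A4: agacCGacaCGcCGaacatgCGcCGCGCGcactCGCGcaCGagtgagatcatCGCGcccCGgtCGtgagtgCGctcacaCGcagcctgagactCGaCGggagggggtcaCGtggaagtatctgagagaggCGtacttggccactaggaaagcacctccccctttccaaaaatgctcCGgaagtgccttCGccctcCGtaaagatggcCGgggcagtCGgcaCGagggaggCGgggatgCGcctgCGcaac
SUCLG2: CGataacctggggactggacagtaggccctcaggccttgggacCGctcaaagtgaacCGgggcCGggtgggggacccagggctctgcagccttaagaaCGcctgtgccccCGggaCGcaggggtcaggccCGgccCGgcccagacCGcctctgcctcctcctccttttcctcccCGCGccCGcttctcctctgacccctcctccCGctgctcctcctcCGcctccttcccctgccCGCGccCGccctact
STAP1 held 2 CG dinucleotides, CLEC12A held 0, SLC35A4 held 29 and SUCLG2 held 18.

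These examples are not typical of the sets they come from. A promoter was listed for 54 of the 68 higher genes, with a median of 24 CG dinucleotides, and for 62 of the 84 lower genes, with a median of 25. The median was 20 over the 14192 genes with a promoter. At least 10 were present in 74.1% of the higher, 83.9% of the lower and 75.0% of all genes. Among the 6637 genes with a promoter that were as bright in the other 3 lines as the dimmest lower gene, the share was 94.0%. Where a gene had several starts, the promoter with the most CG was counted. Promoter methylation and binding of DUX4 were not measured here.

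Position along the genome was also described. The median of NALM6 minus the mean of the other lines lay between -0.04 and 0.05 on every chromosome from 1 to 22 and on X. Chromosome 4 held 9 of the higher and 9 of the lower genes among 708 measured, 1.27% in each direction, which was the largest share in both. Over all genes the shares were 0.37% and 0.458%. Chromosome 9 held 0 of the higher and 7 of the lower genes among 731 measured (0.958% lower). Chromosomes 15 and 22 also held 0 of the higher genes. The lower share was 1.14% on chromosome 18 and 0.84% to 0.922% on chromosomes 5, 6, 7 and 21. The cell cycle inhibitor gene CDKN2A on chromosome 9 was at 4.69 in NALM6, 4.90 in RS4;11 and 4.66 in REH, but 9.35 in SEM. The neighbouring MTAP, an enzyme of methionine salvage, was at 4.65, 4.67, 4.60 and 9.29 in the same order, and CDKN2B lay between 4.70 and 4.93 in all 4 lines. These genes therefore set SEM apart and not NALM6, and the level gives no copy number.

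**Figure D5:**
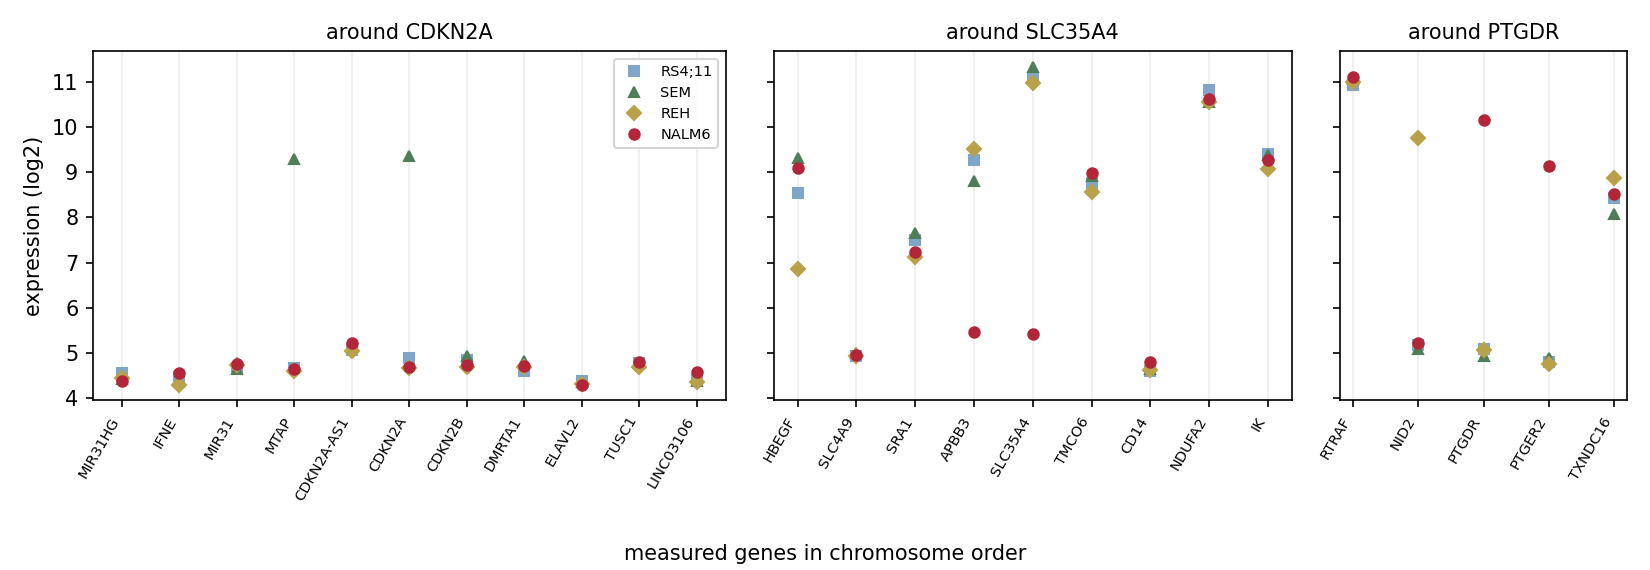
Expression (log2, vertical axis) of measured genes in their order along the chromosome (horizontal axis, not to scale) around CDKN2A, SLC35A4 and PTGDR in the 4 cell lines, with 1 array per point. NALM6 (red) lies far below the other lines at APBB3 and SLC35A4 in the middle panel and far above them at PTGDR and PTGER2 on the right, while at MTAP and CDKN2A on the left SEM is the 1 high line.

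Genes that define the precursor B cell were read from 3 lists. Of 17 measured genes of the pre-B receptor and its signalling, 0 lay 2-fold or more above or below all other lines, against 1.14% of all genes above and 1.17% below, so that this count is near the background. VPREB1, part of the surrogate light chain, was at 10.86 in NALM6, 11.35 in RS4;11, 7.57 in SEM and 5.51 in REH. BLNK, the adaptor below the pre-B receptor, was at 10.66 in NALM6 and 11.74 in REH, against 7.15 and 5.35 in RS4;11 and SEM. NALM6 thus lay inside the range of the other lines for both genes. Of 12 genes of V(D)J recombination and end joining, 1 was at least 2-fold above the other lines and 0 below. It was POLM, a DNA polymerase that fills gaps in end joining, at 9.58 against 7.49, 7.03 and 8.12 (2.76-fold). DNTT, the terminal transferase, was at 11.54 in NALM6 and 12.43 in REH, against 6.88 and 5.11. Of the 24 surface antigens, CD69 alone passed 2-fold, at 9.30 against 7.96, 5.75 and 8.23.

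In DNA mismatch repair, MSH6 was at 10.23 in NALM6, 11.07 in RS4;11, 10.86 in SEM and 11.33 in REH, which was 1.54-fold below the nearest line. MLH3, a MutL family member, was at 7.77 against 8.88, 9.06 and 9.48 (2.16-fold). Transcript levels do not show whether a protein is made. Of 17 genes of response to leukaemia drugs, 2 lay at least 2-fold above and 2 at least 2-fold below the other lines, against 1.14% of all genes above and 1.17% below. The drug exporter ABCG2 was at 8.68 against 4.86, 4.83 and 6.69 (3.98-fold), and TPMT, which inactivates thiopurines, at 8.96 against 7.02, 7.05 and 7.74 (2.32-fold). TSC22D3 (GILZ), a glucocorticoid target, was at 7.66 against 9.42, 9.29 and 10.24 (3.10-fold lower). NT5E was at 4.73 against 5.85, 7.88 and 5.78 (2.06-fold lower). The glucocorticoid receptor gene NR3C1 was at 9.77 in NALM6 and 10.14 to 11.26 in the other lines.

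Lists of cell states were described by the same counts. Cholesterol synthesis had the lowest median of NALM6 minus the mean of the others among the 30 lists, -0.54 over 19 genes, and NALM6 was the lowest line in 13 of them, against 21.9% of all genes. INSIG1, a sterol sensor, was the 1 member past 2-fold, at 9.92 against 11.06, 10.94 and 11.25. HMGCS1, an early enzyme of the pathway, was at 9.61 in NALM6 and 9.57 in REH, against 10.94 and 11.24 in RS4;11 and SEM. NALM6 was the highest line in 10 of 21 MYC and ribosome synthesis genes and in 6 of 10 genes of MHC class I presentation, against 25.0% of all genes. The largest of these was NLRC5, the activator of class I genes, at 9.96 against 8.43, 7.65 and 7.75 (2.89-fold). In 18 stress genes the median was 0.25. VLDLR, a lipoprotein receptor, was the member past 2-fold, at 11.40 against 9.49, 9.15 and 5.09. The 24 proliferation genes had a median of 0.00 and 0 members past 2-fold. None of the 18 genes of the G1 phase, 15 of the BCL2 family, 12 of MHC class II or 22 of NF-kappaB passed 2-fold in either direction, which is near the background of 1.14% above and 1.17% below.

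Some further lists had 1 or 2 members past 2-fold, against 1.14% of all genes above and 1.17% below. Past 2-fold were 1 of 20 p53 targets, 1 of 27 cytokine receptor and JAK-STAT genes and 1 of 32 interferon-stimulated genes. Of 25 adhesion and homing genes, 1 lay above and 1, JAM2, below. TP53INP1, a p53 target, was at 8.03 against 6.15 to 6.69. CSF2RB, the shared beta chain of cytokine receptors, was at 9.47 against 7.48 to 8.30. CCR7, a lymph node homing receptor, was at 7.57, with a gap of 1.56. HERC6, an interferon-stimulated ligase, was at 5.97 against 7.39 to 7.90. PTPRM was the 1 of 16 receptor-type phosphatases set apart in NALM6. Limma called none of these genes after adjustment over all genes.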

How the data were processed

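The authors deposited log2 values, for which the submitters' processing notes name RMA and Partek. Tool versions, roles and genome build: not given in the sources used here. That these are log2 units was inferred from the values. RMA gives no detection call, and its quantile normalization removes array-wide differences in signal.

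Of 32968 probe sets, 19310 had 1 gene symbol in the platform annotation, 1752 several and 11906 none listed. A gene took its probe set of highest mean. XIST and Y-linked genes (23 genes) were left out, and 18326 of the 18354 genes matched RefSeq (GRCh38.p14) by Entrez ID. Limma 3.58.1 in R 4.3.3 (lmFit, eBayes, Benjamini-Hochberg over all genes, two-sided, threshold 0.05) worked with 2 residual degrees of freedom, 1.31 prior ones and a median SE of 0.18. Its p-values set the difference of NALM6 against the spread among the other 3 lines, to which NALM6 adds nothing. A run on simulated normal data, drawn with limma's own fitted spreads, cannot show whether limma's calls hold in these data. Python 3.11.15 made the tables.

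Lists and comparisons were chosen with earlier results of these data known. Named were DUX4, PTPRM, CLEC12A, CDKN2A, CDKN2B, MTAP and MSH6, the 20 largest gaps above and 15 below, up to 4 members past 2-fold per list and direction, and the 5 smallest p-values per direction. All others were named after their values were seen. Some listed genes are not analysed here. Alternatives were repeated quantile normalization, median centring, the mean of probe sets, no dim genes, other thresholds, trended or robust moderation and leaving out a line.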

Additional observations from a re-analysis of the deposited data

Results flagged for a closer look

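Probe sets without a gene name were counted in the same way. Among the 11906 probe sets with no symbol listed, 10 lay at least 4-fold above the highest of the other 3 lines in NALM6 and 10 at least 4-fold below the lowest. Among the 1752 with several symbols, 0 lay above and 3 below. Of the 18354 named genes 0.37% lay above and 0.458% below, a larger share in each direction than in either kind of probe set. These probe sets were singled out because they entered no comparison of named genes, and their transcripts are unnamed here.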

How the results depend on the processing

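The 68 higher genes remained 4-fold apart under every scaling, probe set and filter setting tried, with 71 after repeated quantile normalization and 76 with centred arrays. Of the 84 lower genes 79 and 78 remained under those scalings. The filter could remove none of the 68, because NALM6 was at 6.93 or more in each. The probe set setting could change only 3 of the 68, which had several probe sets. At a 2-fold gap there were 209 higher and 214 lower genes, and at an 8-fold gap 30 and 36. Without RS4;11, SEM or REH in turn, 90 to 141 genes were higher and 111 to 168 lower, the original genes included by construction. Limma's counts were less stable. It called 2 genes lower after repeated quantile normalization and 3 when probe sets of a gene were averaged, where 9 and 10 were higher. It called 0 higher and 0 lower with centred arrays (945 genes at an unadjusted p under 0.05), without dim genes (564), with an intensity trend (890) and with robust moderation (940). Without a line, 0 to 0 genes passed in either direction, with 735, 763 and 1845 at an unadjusted p under 0.05 without RS4;11, SEM and REH. No called gene changed direction, which the size of the gaps nearly fixed in advance. DUX4 moved from 3.21 to 2.29 above the mean of the other lines when its 12 probe sets were averaged. No paired analysis was possible because NALM6 is 1 array and the labels give no replicate numbers. With 1 array per line, culture and array differences cannot be told apart from differences between lines.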
